A study of Mus musculus with 39 samples.

Results

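The comparison set the highest dose of KAL-1 against the lowest dose in subcutaneous adipose tissue. KAL-1 is an ethnobotanical formulation that was given together with a high-fat diet to C57BL/6J mice, which entered the study as weaned animals of 3 to 4 weeks. The arrays were chosen by their labels: 6 arrays of the diet with 75 µg of KAL-1 (HF75) and 6 arrays of the diet with 5 µg (HF5), 1 of each at Weeks 3, 6, 9, 12, 15 and 18, which makes 12 of the 39 arrays of the series. All 12 arrays thus carry tissue of mice on the same high-fat, high-sucrose diet, and the doses differ 15-fold. The 6 arrays of the middle dose, 20 µg (HF20), served as a check that the comparison itself did not use, and arrays of the high-fat diet alone (HFC) and of the low-fat control diet (LFC) are cited only as levels. The labels do not say whether an array holds RNA of 1 mouse or of several, nor the sex of the mice. They speak of 5 animals killed per group at each interval and of 3 biological replicates per diet, while there is 1 array per diet and week, so n counts arrays and what an array stands for is not known. With 1 array per diet and week, weeks served as the replicates, and the p values measure the spread of the dose difference between weeks.

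Subcutaneous fat holds adipocytes, which make, store and release triglyceride, beside a stroma of progenitors, fibroblasts, vessels and immune cells. On a high-fat diet adipocytes enlarge, macrophages gather around dying adipocytes, and collagen and other matrix proteins are laid down. Genes of lipid synthesis, of macrophages and of the extracellular matrix are therefore usual readouts of the state of the tissue. The RNA is from bulk tissue, so fewer cells of a type and less RNA per cell cannot be told apart.

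A level is the log2 intensity minus the 75th percentile of the array, so 0 is the 75th percentile, and a difference is HF75 minus HF5 on that scale. All 10 adipocyte markers were well above background on each of the 12 arrays. Their summed level (on the linear scale, 75th percentile = 1) was 236 to 789 in HF75 and 192 to 653 in HF5. These markers show fat tissue but not its depot, so the subcutaneous label was not checked. Several arrays stood apart. The HF75 array of Week 3 held skeletal muscle RNA, with a summed level of 3236 for 20 muscle markers, against 9.04 to 56.4 on the other HF75 arrays. The array labelled HF5 at Week 12 held it too, at 1150 against 6.90 to 54.4 on the other HF5 arrays. All 20 markers were above background on both. All 6 mesothelium markers were above background on the Week 6 arrays of HF75 and HF5, with summed levels of 8.64 and 5.59. They summed to 0.0647 to 0.864 on the other HF75 arrays and to 0.0543 to 0.961 on the other HF5 arrays. At Week 12 the column of the deposited ratio table that is named for HF5 matched the array labelled HF20 (r = 0.999 over 40628 probes) and not the array labelled HF5 (r = 0.663), so these labels may be exchanged in one of the sources. The title of the array labelled HF5 at Week 12 has a letter B where those of HF20 and HF75 have S, which is not explained. Results follow the array labels and are also given without Weeks 3 and 12 and with the Week 12 array labelled HF20 in place of HF5. That HF20 array itself stood apart in genes of brown fat, with Ucp1 at 6.51 (other HF20 arrays -2.82 to -0.93), Cidea at 6.98 (-1.79 to 2.13) and a median level of 3 over the thermogenic list (-1.11 to -0.31). The part of this in the results with the exchange was not tested. The share of spots well above background was 49.3% to 68.9% in HF75 and 60.3% to 66.9% in HF5, and was higher in HF75 in 1 of 6 weeks (exact permutation test over sign changes, two-sided p = 0.0938, where 0.03125 is the smallest possible).

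**Figure D1:**
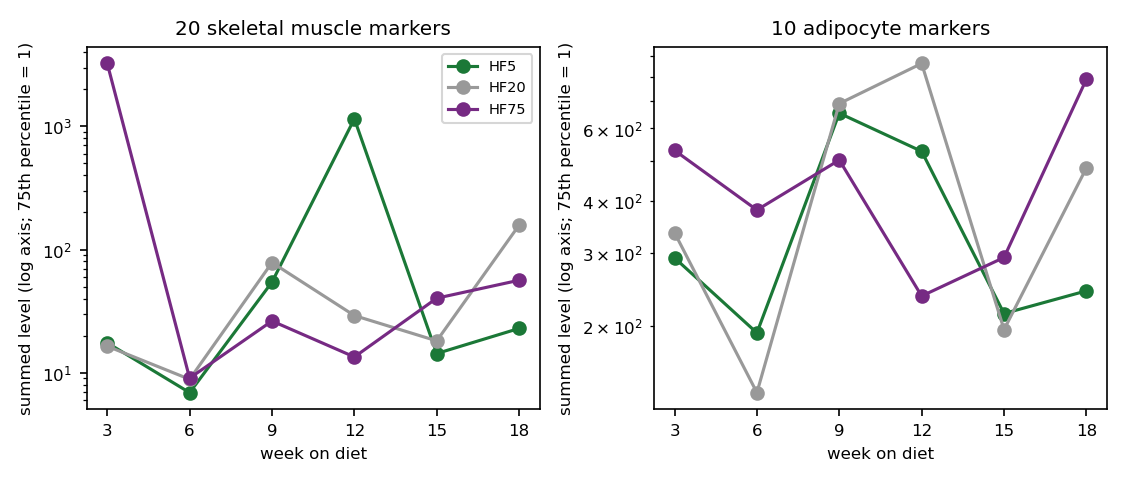
Summed levels of 20 skeletal muscle markers (left) and 10 adipocyte markers (right) on each array, against the week of the label. HF5 is green, HF20 grey and HF75 purple, the y axis is logarithmic and each point is 1 array. The HF75 point of Week 3 (3236) and the HF5 point of Week 12 (1150) stand above the other points for muscle, while the adipocyte markers stay between 138 and 862 on all 18 arrays.

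The first question was which genes differ between the highest and the lowest dose over all weeks. With limma and the week as a block, 0 of 18781 genes had an adjusted p under 0.05 (0% of the genes tested), and the smallest adjusted p was 0.989. At an unadjusted p under 0.05 there were 251 genes, of which 89 were higher in HF75 (0.474%) and 162 were lower (0.863%). The adjusted count was again 0 without Weeks 3 and 12, with 695 genes at an unadjusted p under 0.05 (397 higher and 298 lower) and a smallest adjusted p of 0.39. With the Week 12 array labelled HF20 the adjusted count was also 0, and 257 genes had an unadjusted p under 0.05 (127 higher and 130 lower). In the 4 weeks in which both doses were scanned on 1 day (Weeks 3, 9, 15 and 18) no gene passed after adjustment (0) and 705 genes had an unadjusted p under 0.05 (146 higher and 559 lower). The genes below are therefore described by their levels, and none of them passed the adjusted test.

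The size of the difference between the doses varied with the week. The SD of the differences over all genes was 2.20 at Week 3, 0.76 at Week 6, 0.75 at Week 9, 1.15 at Week 12, 0.81 at Week 15 and 1.53 at Week 18. The share of genes that differed by at least 2-fold ran from 12.1% at Week 6 to 58.1% at Week 3. Across genes, which are not independent replicates, the differences of 2 weeks correlated between -0.42 (Weeks 3 and 12) and 0.42 (Weeks 15 and 18), as a description with 18729 genes.

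Pon1, which encodes a paraoxonase carried on high-density lipoprotein in plasma, had the smallest p of all genes. Its level in HF75 was -3.85 at the lowest, -0.65 at the median and 0.47 at the highest. In HF5 it was -7.24, -3.83 and -1.54. Pon1 was higher in HF75 in 6 of 6 weeks, although its levels overlapped between the doses because Week 6 was low in both. The mean difference was 2.89 (SE 0.45, n = 6 weeks), or 7.44-fold, with an unadjusted p of 0.000233 and an adjusted p of 0.989, and under normexp background correction it was 1.71. Week 12 had the smallest difference, 0.71, and the other weeks ran from 2.45 to 4.28. Without Weeks 3 and 12 the difference was 3.55 (SE 0.28, limma p = 2.08e-05, adjusted p = 0.39), and with the Week 12 array labelled HF20 it was 2.78 (p = 0.000768, adjusted p = 0.971). HF75 was also above HF20 in 6 of 6 weeks, and HF20 above HF5 in 5 of 6. Against HFC, HF75 was higher in 4 of 6 weeks and HF5 in 3 of 6. Since the liver is the main source of this protein, the liver markers are given beside it: their summed level (8 genes) was 0.415 to 1.05 in HF75 and 0.241 to 1.07 in HF5. Of the 4 that were tested, 3 had a mean difference above 0, and all 4 did without Weeks 3 and 12 (median 1.08), and their part in the result was not tested.

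**Figure D2:**
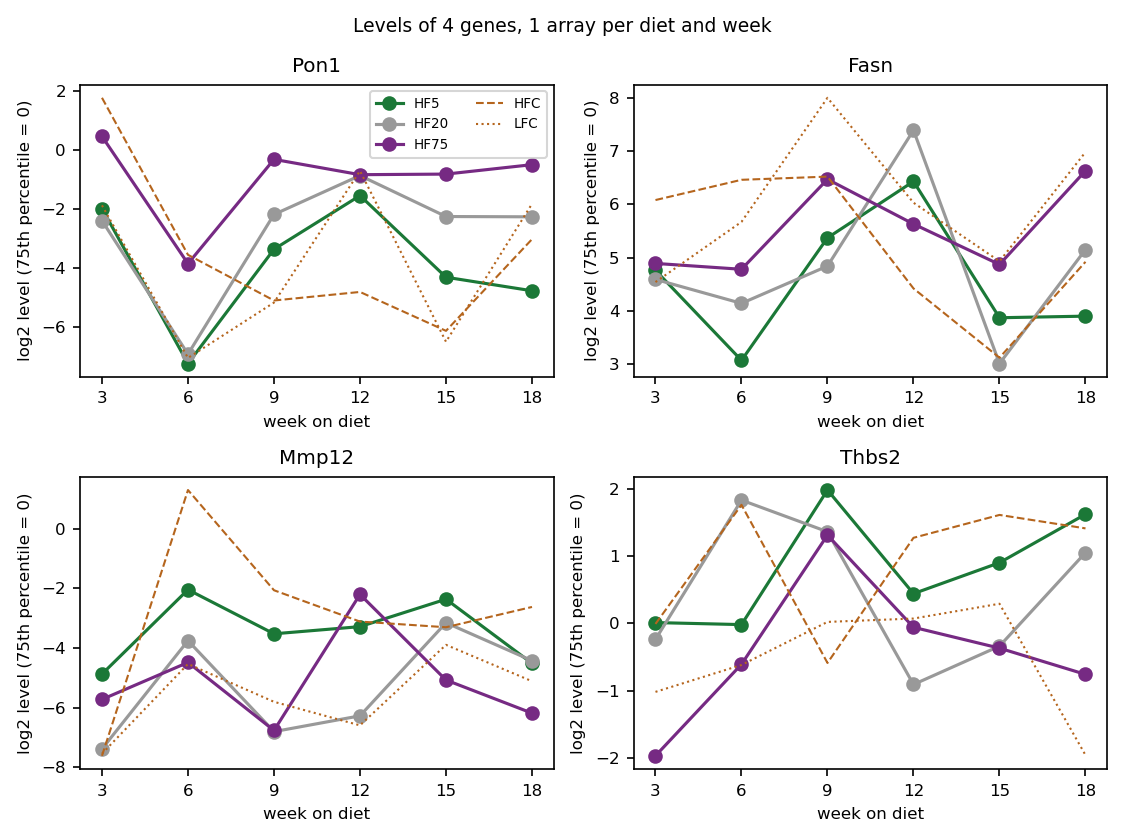
Levels of Pon1, Fasn, Mmp12 and Thbs2 (log2, 75th percentile = 0) against the week of the label, with 1 array per diet and week. HF5 is green, HF20 grey, HF75 purple, HFC a dashed brown line and LFC a dotted brown line. Pon1 in HF75 lies above HF5 and HF20 in every week, Fasn in HF75 lies above HF5 in 5 of 6 weeks, Mmp12 in HF75 lies below HF5 except at Week 12, and Thbs2 in HF75 lies below HF5 in every week.

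The other 11 of the 12 higher genes with the smallest p had mean differences between 0.91 (Lrrn1) and 1.80 (Akap5). Under normexp all 12 kept their sign, but Akap5 had 0.87, Npy6r 0.90, Mup5 0.90 and ENSMUSG00000052439 0.76. Together with Pon1, 11 of the 12 were higher in HF75 in 6 of 6 weeks, as were 0.753% of all genes measured in every week. The exception was Mup5, a major urinary protein, which was 0.40 lower in HF75 at Week 12 and 1.07 to 2.84 higher in the other weeks. Mup5 belongs to a family of near-identical genes, so its probe may also read other members.

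Zfp78, a zinc finger gene, was the higher gene whose levels did not overlap between the doses. It lay at -4.19, -3.84 and -3.48 in HF75 (lowest, median and highest) and at -5.19, -4.93 and -4.43 in HF5. Its difference was 1.01 (SE 0.22, limma p = 0.00194, adjusted p = 0.989), and it was 0.71 (p = 0.0635) with the Week 12 array labelled HF20. Levels without overlap occurred in 5 of 18781 genes (0.0266%).

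Nudt1, which removes oxidised nucleotides from the pool used for DNA synthesis, was among the better expressed of these genes. It lay at -1.1, -0.50 and 0.09 in HF75 and at -2.22, -1.41 and -1.04 in HF5, with a difference of 1.04 (SE 0.25, limma p = 0.00372, adjusted p = 0.989). Tmem177, which takes part in the assembly of mitochondrial complex IV, lay at -2.54, -1.36 and 0.08 in HF75 and at -3.14, -2.53 and -1.60 in HF5. The levels of both genes overlapped between the doses, and both were higher in HF75 in every week, Tmem177 by 0.05 at Week 6.

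Several of the higher genes were dim. Akap5, an anchoring protein for protein kinase A, exceeded background clearly on 4 HF75 and 3 HF5 arrays of 6 each, and its differences ran from 0.73 to 3.30. Npy6r, a receptor of the neuropeptide Y family, was above background on 5 and 3 arrays, with differences from 0.55 to 3.23. Kcnn2, a calcium-activated potassium channel, was above background on 4 and 3 arrays and was higher in HF75 by 0.34 to 1.97. LOC100041495 was above background on 3 and 3 arrays, with differences from 0.62 to 2.33. For such genes the differences rest on intensities near background in part of the arrays. The remaining higher genes were ENSMUSG00000052439, Gsdmcl1 and Lrrn1, with differences of 1.15, 1.24 and 0.91.

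The 12 lower genes with the smallest p had mean differences between -1.63 (Tpbg) and -0.83 (Htra4). Thbs2, a matricellular protein that binds collagen and cell surfaces, lay at -1.97, -0.49 and 1.31 in HF75 and at -0.02, 0.67 and 1.98 in HF5. It was lower in HF75 in every week, by 0.50 at Week 12 and by 2.38 at Week 18, and the mean difference was -1.23 (SE 0.33, limma p = 0.00614, adjusted p = 0.989). Vasn, a membrane protein that binds TGF-beta, lay at 0.35, 1.92 and 2.43 in HF75 and at 1.91, 2.95 and 4.01 in HF5, with a difference of -1.18 (SE 0.33, p = 0.00708, adjusted p = 0.989). Mmp19 and Htra4 encode extracellular proteases, and their differences were -1.22 and -0.83. Mmp19 was lower in HF75 in 5 of 6 weeks and Htra4 in 6 of 6.

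Sox11, a transcription factor of developing tissues, had the smallest p of the lower genes and was the lower gene of these 12 whose levels did not overlap. It lay at -5.68, -4.27 and -3.97 in HF75 and at -3.65, -3.15 and -2.62 in HF5. The difference was -1.33 (SE 0.29, limma p = 0.00196, adjusted p = 0.989), and -0.81 (p = 0.199) with the Week 12 array labelled HF20. Under normexp background correction it was 0.11, so its direction depends on how the background is treated. The same holds for Slc16a12, a monocarboxylate transporter (-1.06, and 0.10 under normexp), Nek2, a mitotic kinase (-1.07 and 0.28), and Htra4 (-0.83 and 0.27), while normexp moved the median over all genes up by 0.142.

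The other lower genes were Bmp3, a member of the TGF-beta superfamily, at -1.11, Spink2, a protease inhibitor, at -1.59, Tpbg, a trophoblast glycoprotein, at -1.63, Ust, a sulfotransferase of glycosaminoglycan chains, at -1.41, and Prtg, a membrane protein of the immunoglobulin family, at -1.31. Of the 12 lower genes, 10 were lower in 6 of 6 weeks (all but Mmp19 and Prtg), as were 0.876% of all genes measured in every week. Under normexp the differences of Mmp19 (-0.26), Bmp3 (-0.10), Spink2 (-0.17), Tpbg (-0.29), Ust (-0.60) and Prtg (-0.19) kept their sign but shrank, while Thbs2 (-1.20) and Vasn (-1.32) stayed near their size. Of the other probes of Prtg, one had -0.93 (above background on 8 of 12 arrays) and one had 0.58 (on 1 of 12). The difference of Spink2 was widest at Week 6, where its HF5 level was 0.14 and its other HF5 levels were -4.20 to -3.22.

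**Figure D3:**
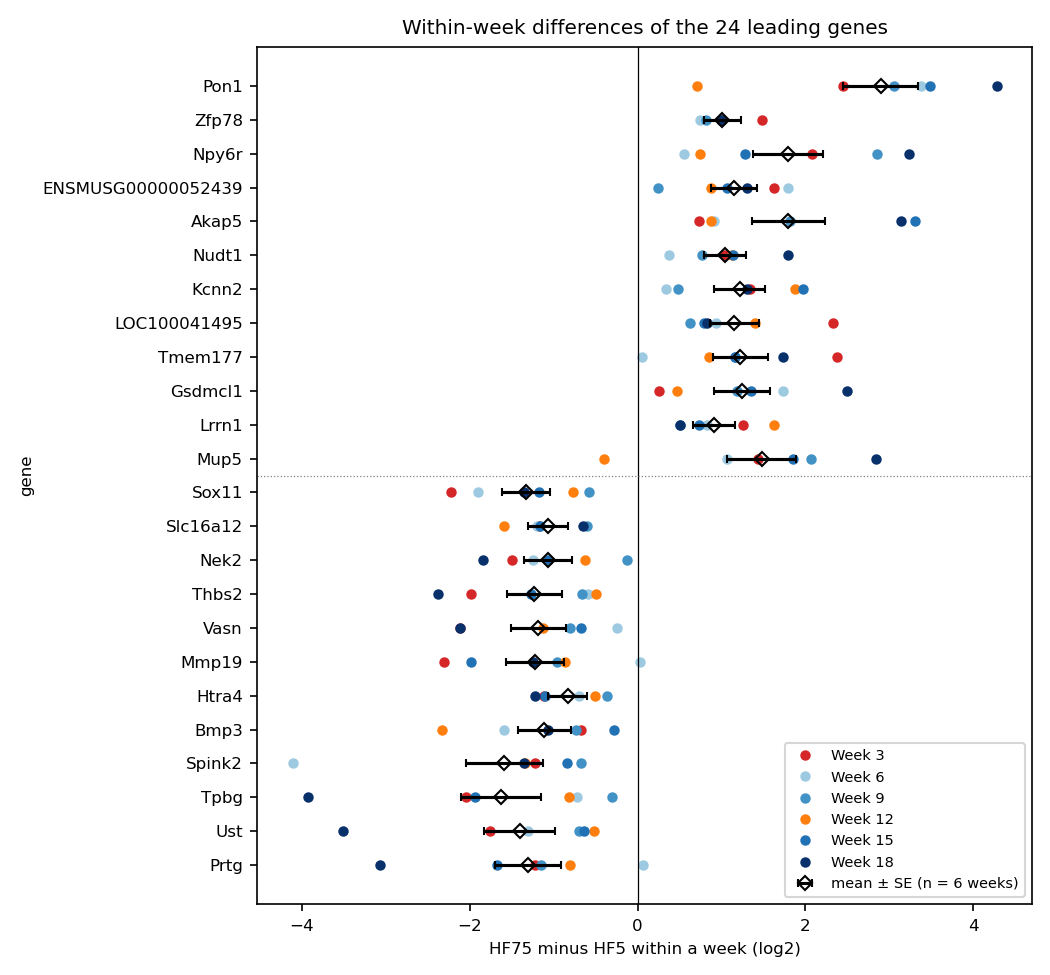
Differences between HF75 and HF5 within each week (log2, x axis) for the 12 higher and 12 lower genes with the smallest unadjusted p; points are weeks by colour, open diamonds are means and bars are 1 SE over 6 weeks. Points of Week 12 (orange) lie nearest to 0 or across it for Pon1 and Mup5, and the points of Week 18 (darkest blue) are the farthest from 0 for Pon1, Npy6r, Thbs2, Tpbg, Ust and Prtg, among others.

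The HF20 arrays had no part in the choice of these 24 genes. The HF20 mean lay between the HF75 and HF5 means for 11 of the 12 higher genes (all but Npy6r) and for 11 of the 12 lower genes (all but Htra4). Over all genes tested this was so for 35.1%, and over the 693 genes whose means differed by at least 1 it was so for 78.1%, since a wide gap leaves more room for a middle value. The 91.7% of each set of 12 is to be read against the second share. Mean levels of Thbs2 were 0.82 in HF5, 0.46 in HF20 and -0.41 in HF75, beside 0.91 in HFC and -0.53 in LFC. For Bmp3 the means were -2.53, -3.15 and -3.64, beside -1.82 in HFC and -3.36 in LFC. These means and the counts above follow the array labels and were not recomputed with the exchange at Week 12. At that week Thbs2 was at 0.44 in HF5 and -0.91 in HF20, and Bmp3 at -1.35 and -4.14. With these labels exchanged, the HF20 mean of either gene would lie above the HF5 mean and no longer in between. The HF75 means of Thbs2 and Bmp3 lay nearer to LFC than to HFC, which was not tested and does not hold for the 24 genes as a set. The HF75 mean of Pon1 (-0.97) lay above both HFC (-3.47) and LFC (-3.85), as did that of Zfp78 (-3.86, beside -4.30 and -4.26).

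Genes of the extracellular matrix had lower mean levels in HF75 throughout the list, and none passed the adjusted test. All 26 of 26 tested members of the list had a mean difference below 0, where 50.2% of all genes tested did, and the median difference was -0.79. At an unadjusted p under 0.05, 3 of the 26 were lower (Lox, Thbs1 and Col5a2) and 0 higher, where 0.863% of all genes were lower and 0.474% higher. By week the median was -1.52 at Week 3, -0.40 at Week 6, -0.06 at Week 9, 0.36 at Week 12, -1.26 at Week 15 and -2.26 at Week 18. The list median was thus below -1 in 3 weeks, near 0 at Week 9 and above 0 at Week 12. Without Weeks 3 and 12 the median was -0.92, with 25 of 26 members below 0 and 8 lower at an unadjusted p under 0.05, where 47.6% of all genes were below 0 and 1.59% were lower at that p. Without Week 3 alone the median was -0.56, with 25 of 26 below 0. The 10 adipocyte markers went the other way, with weekly medians of -1.18 at Week 12 and 2.56 at Week 18 and a median of 0.73 (10 of 10 above 0) without Weeks 3 and 12, and their part in the matrix list was not tested. With the Week 12 array labelled HF20 the median was -0.78 with 26 of 26 below 0.

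Lox, which cross-links collagen, was lower in HF75 in 6 of 6 weeks. It lay at -1.97, -0.62 and 1.47 in HF75 and at -0.24, 0.93 and 1.76 in HF5, with a difference of -1.32 (SE 0.40, limma p = 0.0116, adjusted p = 0.989). Thbs1, a matricellular protein that activates TGF-beta, had a difference of -1.94 (SE 0.80), of which Week 3 held -6.08, and without Weeks 3 and 12 it was -1.05 (p = 0.134). The fibrillar collagens Col1a1, Col3a1 and Col5a2 had differences of -1.02, -0.63 and -0.99. Col6a1 and Col6a2, which encode chains of the collagen around adipocytes, had -0.97 and -0.86, and -1.60 (p = 0.0209) and -1.39 (p = 0.0229) without Weeks 3 and 12. Timp1, an inhibitor of matrix proteases, had -1.39, and -1.34 (p = 0.0455) without those weeks.

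The progenitor and fibroblast list had the same direction as the matrix list. Its median was -0.57, with 16 of 17 tested members below 0 and 0 at an unadjusted p under 0.05. The median was -0.36 (15 of 17 below 0) without Week 3 and -0.62 when Weeks 3 and 12 were left out. Pdgfrb, a receptor of stromal and mural cells, had a difference of -0.57, and Aldh1a3, which makes retinoic acid, had -1.34. The TGF-beta and Wnt list had a median of -0.44, with 20 of 23 below 0, but -0.28 (18 of 23) without Week 3 and -0.12 (16 of 23) under normexp. Inhbb, a subunit of activin, had a difference of -1.20 (SE 0.50, limma p = 0.0429, adjusted p = 0.989) and was lower in 5 of 6 weeks, while another probe of Inhbb had 0.47.

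Genes of inflammatory macrophages had lower means in HF75, but with a large share from Week 3. All 28 of 28 tested members were below 0, with a median of -0.74, and 2 of them were lower at an unadjusted p under 0.05, as were 0.863% of all genes. The weekly medians were -3.43, 0.14, 0.00, 1.04, -1.19 and -1.69 from Week 3 to Week 18, so they were below 0 in 3 weeks and above 0 in 2. Without Week 3 alone the median was -0.23 with 23 of 28 below 0, and without Weeks 3 and 12 it was -0.55 with 27 of 28 below 0. The resident macrophage list had a median of -0.42 with 14 of 15 below 0, and without Week 3 it was -0.21 with 11 of 15. The MHC class II list had -0.29 with 10 of 10 below 0, but -0.10 with 6 of 10 without Week 3, and -0.38 with 9 of 10 without Weeks 3 and 12. Lymphocyte markers went the same way: 13 of the 14 tested (of 17) were below 0, with a median of -0.88. It was -0.50 with 12 of 14 below 0 without Week 3, and -0.37 with 11 of 14 under normexp. The summed level of the lymphocyte markers was 0.818 to 39.7 in HF75 and 1.85 to 20.5 in HF5. Epithelium markers (8 of 8 tested below 0, median -0.53) had -0.06 without Week 3, and 0.32 with 2 of 8 below 0 under normexp. Nerve markers (6 of 6 tested above 0, median 0.43) had 1.16 without Week 3. Their median was -0.18 with 4 of 6 below 0 without Week 12, and -0.40 within scan days. The part of these cell types in the immune lists was not tested.

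Mmp12, a macrophage elastase, and Gpnmb, a glycoprotein of lipid-laden macrophages, were the leading members. Mmp12 was dim, well above background on 3 of the HF75 arrays and on all 6 of HF5, so its differences rest partly on intensities near background. It lay at -6.76, -5.39 and -2.20 in HF75 and at -4.87, -3.40 and -2.04 in HF5. It was lower in HF75 by 0.84 to 3.24 in 5 weeks and 1.08 higher at Week 12, which gave a difference of -1.64 (SE 0.56, limma p = 0.0192, adjusted p = 0.989). Without Weeks 3 and 12 it was -2.51 (p = 0.000259, adjusted p = 0.924), and with the Week 12 array labelled HF20 it was -1.14 (p = 0.243). Its mean level was -3.43 in HF5 and -5.07 in HF75, beside -2.90 in HFC and -5.58 in LFC, and under normexp its difference was 0.20. Gpnmb lay at -4.25, -1.13 and 0.82 in HF75 and at -0.52, 0.11 and 1.21 in HF5, with a difference of -1.51 (SE 0.58, p = 0.0327, adjusted p = 0.989) and -1.62 (p = 0.00304, adjusted p = 0.924) without Weeks 3 and 12. The levels of both genes overlapped between the doses.

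The interferon response list had a median of -0.73 with 20 of 21 members below 0, but the median was -3.66 at Week 3. It was -0.14 with 12 of 21 below 0 without Week 3, and -0.32 with 14 of 21 without Weeks 3 and 12. The immediate early list was similar. Its median of -0.84 came with -5.19 at Week 3, while the other weeks lay between -0.83 and 0.04, and it was -0.08 without Week 3 and -0.18 without Weeks 3 and 12, with 13 of 19 below 0 in each. The endothelial list turned from -0.29 to 0.22 without Week 3 (13 of 13 above 0) and to 0.29 without both weeks (10 of 13). The ER stress list had a median of -0.38 with 17 of 18 below 0, and -0.26 with 17 of 18 below 0 without those weeks. The cell cycle list had -0.47, then -0.05 without Week 3 and -0.15 without both weeks.

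**Figure D4:**
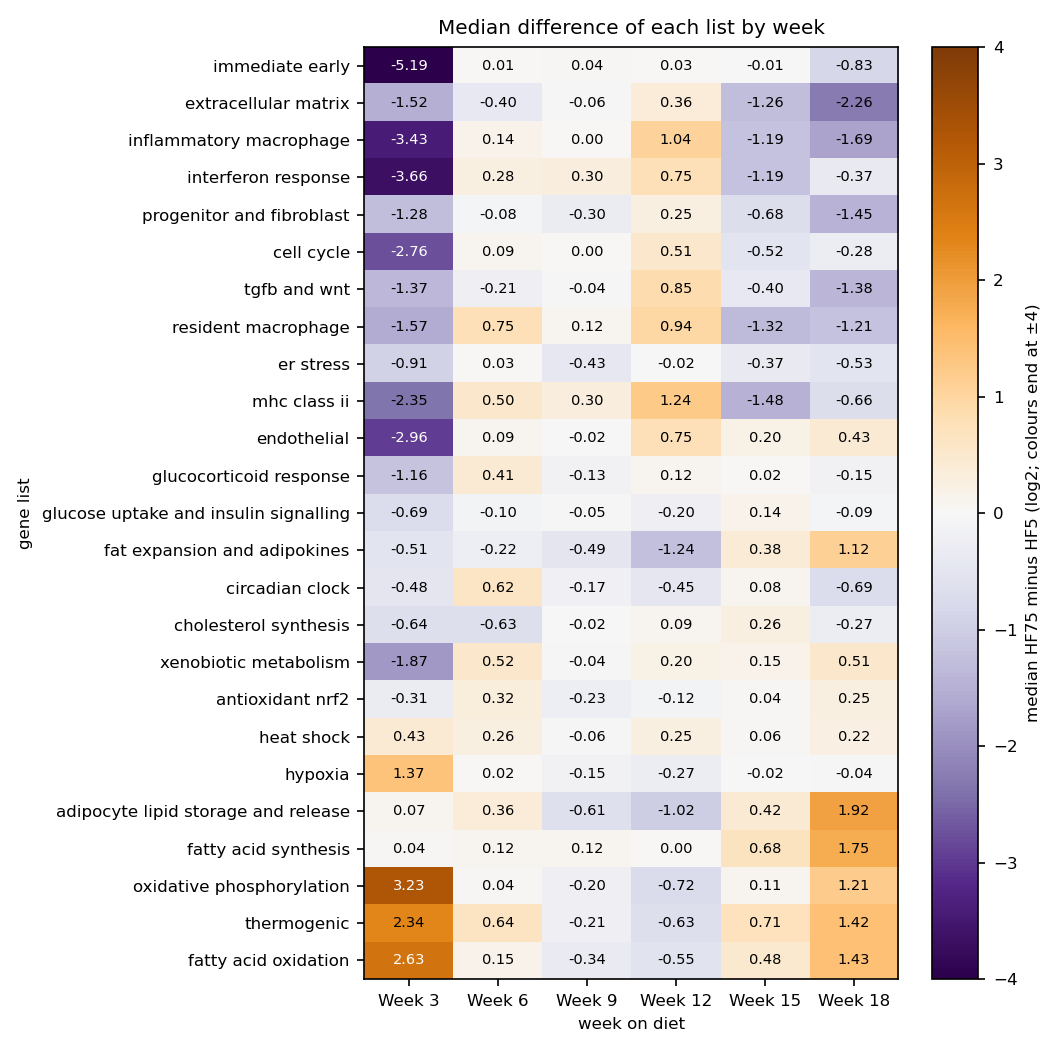
Median difference HF75 minus HF5 (log2) of the tested genes of 25 function lists (rows, ordered by the median over all weeks) in each week (columns); purple is lower and orange higher in HF75, and colours end at ±4. The immune and matrix lists are lowest at Week 3, Week 15 or Week 18, most lists lie near 0 at Weeks 6 and 9, and several turn sign at Week 12.

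Genes of fatty acid synthesis had mostly higher mean levels in HF75, and none passed the adjusted test. In this list 13 of 16 tested members were above 0, with a median of 0.40, and without Weeks 3 and 12 it was 15 of 16 with a median of 0.66. The weekly medians were 0.04, 0.12, 0.12, 0.00, 0.68 and 1.75, so the list stood above 0 mainly at Weeks 15 and 18. At an unadjusted p under 0.05, 1 member was higher (0.474% of all genes), and without Weeks 3 and 12 there were 4 (Fasn, Thrsp, Pnpla3 and Fads2), where 2.11% of all genes were higher at that p. The adipocyte markers had the same direction, with medians of 0.53 at Week 15 and 2.56 at Week 18, and their part in the list was not tested. Fasn, fatty acid synthase, lay at 4.78, 5.26 and 6.63 in HF75 and at 3.07, 4.33 and 6.43 in HF5. Fasn was saturated on 1 HF75 array, which bounds its level there from below. Its difference was 0.98 (SE 0.45, limma p = 0.0632, adjusted p = 0.989), and 1.64 (p = 0.00411, adjusted p = 0.924) without Weeks 3 and 12. Thrsp, a lipogenic regulator, had differences of 1.11 and 1.67, and Acss2, which makes acetyl-CoA from acetate, had 0.80 and 0.81. Slc2a5, the fructose transporter, was dim and had 1.58 (p = 0.0482, adjusted p = 0.989).

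The lists of fatty acid oxidation and oxidative phosphorylation had medians of 0.64 (19 of 20 above 0) and 0.56 (29 of 30 above 0). At Week 3 these medians were 2.63 and 3.23, beside a median difference of 9.20 over the 20 skeletal muscle markers, and at Week 12 they were -0.55 and -0.72, beside -7.23. From Week 15 to Week 18 the oxidation list went from 0.48 to 1.43, where the muscle markers had 1.25 and 1.1. Without Week 3 alone the medians were 0.29 (17 of 20 above 0) and 0.05 (20 of 30 above 0). Leaving out Weeks 3 and 12, they were 0.43 (18 of 20 above 0) and 0.31 (29 of 30 above 0), with a muscle median of 0.39. The part of muscle RNA in these lists was not tested. The list of adipocyte lipid storage and release had a median of 0.25, which was 0.49 with 21 of 24 above 0 without Weeks 3 and 12, 0.05 under normexp and -0.11 without Week 18. Its weekly medians were 1.92 at Week 18 and -1.02 at Week 12, and the 10 adipocyte markers went the same way (2.56 and -1.18).

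In the thermogenic list 8 of 12 tested members were above 0, with a median of 0.61. At Week 3, beside the muscle markers, the median was 2.34. Without Week 3 alone it was 0.19 with 8 of 12 above 0, and without Weeks 3 and 12 it was 0.48 with 11 of 12. Cidea, a lipid droplet protein of brown and beige fat, had a difference of 1.09, of which Week 18 held 4.53, and 0.52 with the Week 12 array labelled HF20. Dio2, which activates thyroid hormone, was the member below 0 without Weeks 3 and 12, at -1.70 (limma p = 0.00664, adjusted p = 0.924), and had -0.90 over all weeks. At an unadjusted p under 0.05 in that setting, Pank1 (1.24, p = 0.04) and Cox7a1 (1.12, p = 0.0483) were higher. The lists of xenobiotic metabolism and of the Nrf2 antioxidant response, which respond to many plant compounds, had medians of -0.04 (13 of 25 below 0) and 0.00 (9 of 18 below 0). The xenobiotic median was 0.18 without Weeks 3 and 12, with 20 of 25 above 0, as it had been -1.87 at Week 3. Ugt1a6b, a glucuronidating enzyme, had -1.13 (SE 0.40, p = 0.0239, adjusted p = 0.989). The lists of cholesterol synthesis (-0.10), the circadian clock (-0.11), heat shock (0.17), hypoxia (0.21), glucose uptake and insulin signalling (-0.19), glucocorticoid response (-0.21) and fat expansion (-0.17) had medians under 0.25 in size. Several of these turned sign with the processing. The fat expansion median was 0.17 without Weeks 3 and 12, with 10 of 17 above 0. Under normexp the medians of heat shock (-0.08), cholesterol synthesis (0.14), the circadian clock (0.15) and hypoxia (-0.02) turned, that of heat shock was also -0.14 with the exchange at Week 12, and that of glucose uptake was 0.12 without Weeks 3, 12 and 18.

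None of the 11 genes named in any case passed the test. Lep, which encodes leptin, had a difference of -0.19 (SE 0.66), with weekly values from -2.03 at Week 12 to 3.09 at Week 18. Adipoq, which encodes adiponectin, had 0.65 (SE 0.65), and Scd1, a fatty acid desaturase, had -0.06 (SE 0.59). Mest and Sfrp5, markers of fat expansion, had -0.77 (SE 0.49) and -0.50 (SE 0.32). Mest was lower in HF75 up to Week 12, by 1.29 or more, and higher at Weeks 15 and 18 (0.76 and 1.12), and its difference was -0.18 without Weeks 3 and 12 and -0.31 with the exchange at Week 12. Ucp1, the uncoupling protein of brown fat, had 0.59 (SE 0.66), of which Week 18 held 3.95, and its difference was -0.62 with the Week 12 array labelled HF20. The macrophage genes Cd68, Emr1, Itgax and Ccl2 had -0.60 (SE 0.57), -0.57 (SE 0.47), -1.28 (SE 0.67) and -1.56 (SE 0.94), and the difference of Ccl2 was -6.51 at Week 3 alone. Without Week 3 the 4 differences were -0.21, -0.25, -0.76 and -0.57, and without Weeks 3 and 12 they were -0.70, -0.73, -1.29 and -0.80. Another probe of Emr1, above background on 8 of 12 arrays, had 0.14 over all weeks. Ccl2 was saturated on 2 HF5 arrays and Adipoq on 1. The direction of Lep and Scd1 changed with the weeks used, as both were above 0 without Weeks 3 and 12 (0.03 and 0.40).

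The second question was whether the difference between the doses changed from Week 3 to Week 18. The slope of the weekly differences had an adjusted p under 0.05 in limma for 0 of 18781 genes, with 2074 genes at an unadjusted p under 0.05 (11%) and a smallest adjusted p of 0.0837. The 3 genes with the smallest p among rising slopes were Gm14506, Olfr135 and Socs7, at 0.77, 0.71 and 0.59 per week (SE 0.08, 0.07 and 0.06, limma adjusted p = 0.0837 for each). Gm14506 went from -6.64 at Week 3 through -4.72, -0.40, 0.17 and 1.54 to 5.70 at Week 18. Gm14506, Olfr135 and Socs7 varied together on the arrays of all doses. Gm14506 lay at -6.04 and -7.44 on the HF75 arrays of Weeks 3 and 6 and at 2.63 on that of Week 18, while in HF5 it was -2.72 at Week 6, -3.07 at Week 18 and 0.60 to 0.68 in the other weeks. HF20 had its lowest level at Week 6 too, at -4.97. Another probe of Gm14506, above background on all 12 arrays, had a mean difference of 0.39 where the probe used had -0.73. Olfr135 is an olfactory receptor gene and Socs7 an inhibitor of cytokine signalling, and no function is given here for Gm14506.

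The count of slopes depended on the processing. With limma under normexp 121 genes passed, of which 118 rose, and without Week 9 the count was 66, all rising. Gm14506, Olfr135 and Socs7 were among the genes that passed in both settings, with slopes of 0.42, 0.38 and 0.37 under normexp (limma adjusted p = 0.0157, 0.0269 and 0.0202) and 0.79, 0.73 and 0.60 without Week 9 (adjusted p = 0.0357, 0.0357 and 0.0381). Both sets shared 48 genes, which is 39.7% of the first and 72.7% of the second. With the Week 12 array labelled HF20 the count was 62, again with these 3 genes, and without Week 12 it was 2. Without Week 3, or without Weeks 3 and 12, it was 0. Among falling slopes, Tbc1d10c had -0.39 per week (SE 0.06, limma adjusted p = 0.119), from 2.6 at Week 3 to -3.46 at Week 18, and Nup210 had -0.31 per week (SE 0.05, limma adjusted p = 0.12).

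**Figure D5:**
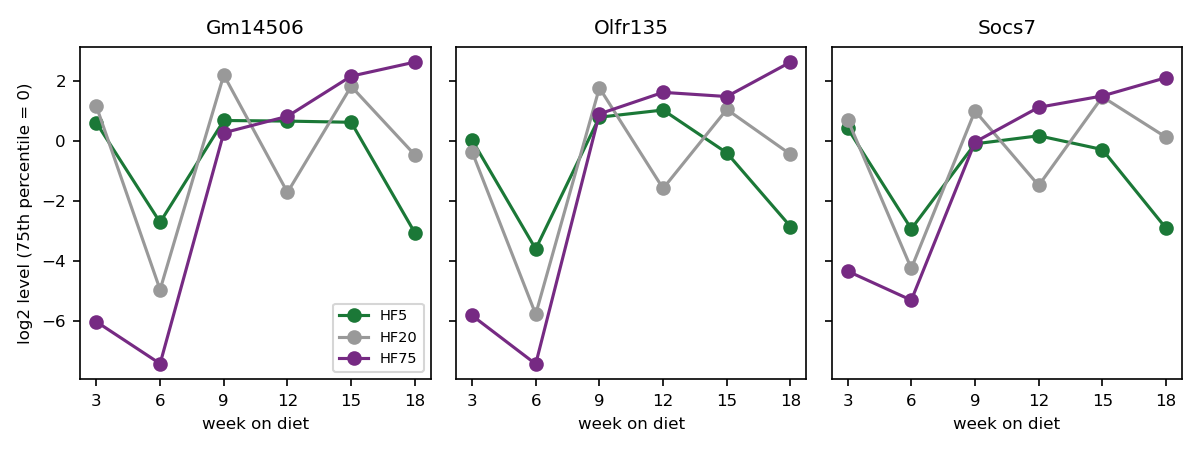
Levels of Gm14506, Olfr135 and Socs7 (log2, 75th percentile = 0) against the week of the label. HF5 is green, HF20 grey and HF75 purple, and each point is 1 array. All 3 genes are low at Week 6 at every dose, low at Week 3 in HF75 alone and low at Week 18 in HF5, and they move together across the 18 arrays.

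The third question was whether levels followed the dose over HF5, HF20 and HF75. In the fit of the 18 arrays on log2 dose, 0 of 19792 genes had an adjusted p under 0.05 in limma, with 204 rising (1.03%) and 333 falling (1.68%) at an unadjusted p under 0.05. This fit shares the HF5 and HF75 arrays with the comparison above and is not independent of it. Pon1 again had the smallest p, with a slope of 0.74 per doubling of the dose (SE 0.11, unadjusted p = 1.39e-05, adjusted p = 0.275). Without Weeks 3 and 12 it was 0.91 with an adjusted p of 0.0417, the single gene called in any dose fit run. Nudt1 (0.27, adjusted p = 0.932) and 2810039B14Rik (0.18, adjusted p = 0.932) followed among the rising slopes. Slc16a12 (-0.27), Vasn (-0.30) and LOC100048500 (-0.31) led the falling slopes, each with an adjusted p of 0.932, but the slope of Slc16a12 was 0.03 under normexp. The HF20 array of Week 15 stood apart, with 87.8% of spots above background and 4936 outlier spots against 39 to 78 on the other HF20 arrays. Akap5, too, was at -0.21 on the HF20 array of Week 12, the array with high Ucp1, and at -6.77 to -4.68 on the other HF20 arrays. When HF5 and HF20 swapped their Week 12 arrays, the dose count was 0, with 534 genes at an unadjusted p under 0.05 and a smallest adjusted p of 0.889. Without Week 15 the dose count was again 0, with 521 genes at an unadjusted p under 0.05.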

How the data were processed

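Total RNA of mouse subcutaneous adipose tissue had been labelled with Cy3 and hybridised to Agilent 1-colour arrays. Per the file headers, the deposited array files hold spot intensity values from Agilent Feature Extraction 10.5.1.1 (the submitters' notes name version 9.1), with the background subtracted and no normalization between arrays. The authors' deposited table gives log2 ratios against the LFC array hybridised for that week, and was used as an alternative.

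Here levels are log2 of the processed intensity, less the array's own 75th percentile. Outlier spots were left out, replicate spots averaged, and each gene name represented by its probe of highest mean over 39 arrays. A gene was tested when well above background on at least 6 of the 12 arrays (18781 of 29411 gene names). Of the names tested, 13978 were RefSeq symbols and 2249 RefSeq synonyms. For weekly values at a single array there is no replicate check, and the number of arrays limits the precision.

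HF75 and HF5 were compared in limma (version 3.58.1, under R 4.3.3), taking the week as a block, because each week has 1 array per dose. All tests are two-sided, with Benjamini-Hochberg adjustment over all genes tested and a threshold of 0.05. The slope of the weekly differences on the week and the slope on log2 dose over HF5, HF20 and HF75 were fitted in the same way. Week is shared by label. The paper, on liver of the same experiment, counts weeks from a day after the diet began. The week of the label is thus not the time on diet, also where a figure axis reads week on diet. As a check of pairing, deviations of the HF75 and HF5 array of a week from their dose means correlated at -0.18, 0.72, 0.53, -0.19, 0.44 and -0.34 from Week 3 to Week 18.

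Named genes were the 12 of smallest p in each direction that were well above background on at least 3 arrays of each dose, the 2 of smallest p in each of 25 function lists, 11 genes named in any case (the adipokines Lep and Adipoq, Fasn and Scd1, Mest and Sfrp5, Ucp1, and the macrophage genes Ccl2, Itgax, Emr1 and Cd68), and the 3 per direction of smallest p for each slope, with some further list members given as values. One of the genes this rule names is not reported here. Lists held 603 names on the array. The comparison, the lists and their members were chosen with earlier results of these data known, so they give no independent support. Lists are described by counts and medians, without a test. The fits were tested on simulated data with a smaller spread than these arrays and no outlying array. That checks the code and does not tell what the fits can find in these data. Alternatives were other backgrounds, scalings, filters, weights and blocks, each week left out, the 30 arrays of 5 diets, the methods' t-test, and the deposited ratios. The use of the Week 12 array labelled HF20, the fit without Weeks 3, 12 and 18, and the lists under these settings were added after seeing the data.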

Additional observations from a re-analysis of the deposited data

Results flagged for a closer look

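In 26 of 258 sets of 6 arrays (10.1%) the highest or lowest array stood far from the other 5, by Dixon's test for 6 arrays, and chance flags about 1 in 20 such groups. Of the 26, 16 were the HF75 array of Week 3, 4 the HF5 array of Week 12 and 4 an array of Week 6. The part of muscle RNA in the first 2 sets was not tested.

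On the HF75 array of Week 3 the median level of the muscle markers was 7.5 (others -2.93 to 0.24), of oxidative phosphorylation 7.08 (3.53 to 4.85) and of fatty acid oxidation 4.38 (1.40 to 2.42). It was -2.26 for interferon response (others 1.51 to 2.22), -0.98 for xenobiotic metabolism (0.91 to 1.78) and -1.02 for immediate early genes (4.03 to 4.85). Single genes high on this array were Acaa2 (6.41), Cox5b (7.47, a probe saturated on 1 HF75 array) and Gstp1 (7.11). Single genes low on it were Vasn (0.35), Stat2 (-0.14), Hspa1a (1.48), Adm (-1.55), Maff (-1.37), Mest (-0.69) and Ccl2 (-1.83, others 4.02 to 6.77).

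On the HF5 array of Week 12 the median level of the muscle markers was 5.95 (others -2.55 to -0.27) and that of the TGF-beta and Wnt list was -1.67 (others -0.40 to 0.00), while Slc16a12 was at -1.92 and Ccnb1 at -4.65. At Week 6, Pon1 was at -3.85 in HF75 (others -0.83 to 0.47), Gsdmcl1 at -5.7 in HF75, 2810039B14Rik at -3.47 in HF75 and Spink2 at 0.14 in HF5 (others -4.20 to -3.22). The HF5 level of Thbs1 was 0.61 at Week 9 (others 2.31 to 3.03), and the HF5 median of the heat shock list was 3.75 at Week 3 (others 4.33 to 4.58).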

How the results depend on the processing

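For HF75 against HF5 the count at an adjusted p under 0.05 was 0 in all 24 alternatives, with 155 (without Week 18) to 1315 (no filter on dim genes) genes at an unadjusted p under 0.05, and the smallest adjusted p was 0.344 (array quality weights). Without the replicate block the count was also 0, with 161 genes unadjusted, and the same-week arrays did not all deviate together. The slide as a random block over 30 arrays gave 0 and 1070, with a correlation of 0.744 within slides. No slide held more than 1 of the 12 arrays, so dose and slide cannot be told apart within a week. The methods' t-test gave 0 and 180 (limma: 0 and 251), and the deposited ratios gave 0 and 255. For the slope by week, leaving out 1 week gave 0 to 66 genes (Week 9: 66, Week 12: 2, namely Gm4154 and XM_001472625, named after their values were seen), normexp gave 121, and the Week 12 array labelled HF20, added after seeing the data, gave 62. For the dose trend, leaving out 1 week gave 0, and leaving out Weeks 3 and 12 gave 1. Without the replicate block the dose trend gave 0, with 249 genes unadjusted against 537. The cause of these shifts was not tested. Normexp moved the median over all genes by 0.142, the array median as scale by 0.088 and quantile scaling by -0.021. The share of genes below 0 was 50.2%, against 38% under normexp and 41% with the array median.

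Of 532 recomputed differences of the 24 leading genes, 4 changed sign, all under normexp: Sox11 0.11, Slc16a12 0.10 (dose slope 0.03), Nek2 0.28 and Htra4 0.27. Of 1367 for the other named genes, 35 did. Under normexp these were Mmp12 0.20, Ccnb1 0.25, Cry1 0.35 and Sfrp5 0.54, the last also 0.09 with the slide block. Lep was 0.12 with the slide block, -0.84 (without Week 18) to 0.15 (without Week 9) with 1 week left out, 0.47 within scan days, 0.17 with the deposited ratios and with the Week 12 exchange, 0.18 without Week 12 and 0.03 without Weeks 3 and 12. Scd1 was 0.22 with the slide block, -0.67 without Week 18, 0.01 without Week 6, 0.24 without Week 9, 0.03 with the array median and without Week 3, 0.38 within scan days, 0.07 with the deposited ratios and the exchange, 0.23 without Week 12 and 0.40 without both weeks. Ucp1 was -0.08 without Week 18, 0.81 without Week 9 and -0.62 with the deposited ratios and the exchange. Cldn5 and Hspa1a, saturated on 3 and 5 of the 12 arrays, were 0.05 and 0.18 with array weights, 0.17 and 0.07 without Week 3, 0.36 and 0.22 without Weeks 3 and 12, and 0.38 and 0.44 without Weeks 3, 12 and 18. Pecam1 was 0.03 without Week 3, and H2-DMb1 was 0.05 without Weeks 3, 12 and 18.

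The medians of the extracellular matrix (-1.37 to -0.49), inflammatory macrophage (-1.47 to -0.23) and fatty acid synthesis lists (0.26 to 0.73) kept their sign in 23 of 23 alternatives. The cell cycle list was 0.14 under normexp. Without Weeks 3, 12 and 18 oxidative phosphorylation was -0.06, immediate early 0.03 and fatty acid oxidation 0.00. The differences of genes near background are limited by how the background is treated.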
